A study of Mus musculus with 4 samples.

Results

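Heat shock proteins and their DNAJ co-chaperones were followed in immortalised fibroblasts from mouse embryos (MEFs), with 2 Affymetrix arrays of PA1 -/- cells and 2 of PA1 +/+ cells. The genes were taken by symbol: every probe set with a single gene symbol in the HSPA, HSPB, HSPD, HSPE, HSPH, DNAJA, DNAJB or DNAJC families, plus Hsf1 and Hsf2, without Hspa5. This gave 68 genes with 161 probe sets, of 18193 genes with a single symbol on the array. The pattern does not match Hsp90aa1 as written, so that gene is described with the neighbouring chaperones below, and Hsf1 was not analysed here. Hspa4l was singled out with earlier results of these data known, so its level is given as a description.

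Both groups carried loxP-flanked PA1 alleles and were selected with puromycin. The PA1 -/- cells had received a retrovirus expressing Cre, a recombinase that cuts out the DNA flanked by loxP sites, and the PA1 +/+ cells the empty retroviral vector. PA1, read here as Pagr1a, belongs to the complexes of the histone methyltransferases KMT2C and KMT2D, and the study looked for genes that depend on it. Only the PA1 -/- cells received Cre, so loss of PA1 and exposure to Cre cannot be told apart, and the labels do not say whether the duplicate RNAs of a group came from separate cultures or how many lines were used. What the p-values measure is thus the spread of these 4 samples alone, and part or all of it may be technical.

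Heat shock proteins bind unfolded or partly folded proteins and help them fold, refold or be degraded. HSP70 proteins work in cycles of ATP hydrolysis: DNAJ proteins deliver clients and start hydrolysis, and nucleotide exchange factors, among them the HSP110 proteins, release the client again. Small heat shock proteins (HSPB) hold unfolded proteins without ATP, and HSPD1 with HSPE1 forms the folding chamber of mitochondria. Under stress, heat shock factor 1 binds repeats of the letters GAA and TTC near these genes and induces many of them, while other members, such as Hspa8, are made constantly.

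Before the members are described, 3 features of the arrays bear on them. The targeted gene Pagr1a read 107.6 and 113.4 in PA1 -/- arrays, against 1340 and 1389 in PA1 +/+ arrays, a log2 difference of -3.51 (MAS5 signal, a linear brightness summarised over the probes of a set). The arrays resembled each other by replicate number more than by genotype: log2 signals correlated at 0.971 and 0.977 between genotypes within numbers 1 and 2, but at 0.920 between the PA1 -/- arrays and 0.918 between the PA1 +/+ arrays. Every genotype difference is therefore also given at each number. Of 13 fibroblast markers, 12 lay in the brighter 50% of probe sets, and their summed signal was 81338 and 90113 in PA1 -/- arrays, against 92668 and 110518 in PA1 +/+ arrays. Pdgfra read 134 and 210 in PA1 -/- arrays, against 1515 and 357 in PA1 +/+ arrays, and Dcn 41.4 and 37.9 in PA1 -/- arrays, against 138 and 103 in PA1 +/+ arrays. Col1a1, Col1a2, Vim, S100a4, Pdgfrb and Prrx1 were also lower at both numbers. Twist1 was higher at both, as was Lum, which was dim in all arrays (19.0 to 31.1). Col3a1, Thy1 and Fn1 had opposite signs at the numbers. Of 5 leukocyte markers measured, Cd68 was in the brighter 50%, at 173 and 133 in PA1 -/- arrays, against 224 and 165 in PA1 +/+ arrays, and Ptprc read at most 3.95 in PA1 -/- and 16.8 in PA1 +/+ arrays. Of 4 endothelial markers, Kdr was in the brighter 50%, at 74.9 and 74.6 in PA1 -/- arrays, against 82.5 and 48.2 in PA1 +/+ arrays, and Pecam1 read at most 10.2 in PA1 -/- and 5.61 in PA1 +/+ arrays. The part of these markers in the results was not tested. In bulk RNA, fewer cells of a type and less RNA per cell cannot be told apart.

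The promoters of the members that the results turn on are shown first, to let the letters be read beside the signals. The RefSeq windows on GRCm38.p6 span 250 bases before to 50 after the annotated start, and 56 of the 68 genes had one. A run of 3 units (GAA, then TTC, then GAA, with 2 bases of any kind between neighbours) was searched on both strands, together with its 2-unit parts GAANNTTC and TTCNNGAA, which lie inside it. The 3-unit motif was in windows of 4 of the 56 genes (Hspd1, Hspe1, Hsph1 and Dnajb6), beside 0.662% of all 27025 genes with a window of this length. GAANNTTC was in windows of 14 of the 56, beside 9.04% of all genes, and TTCNNGAA in 6, beside 9.60%. Shown are Hspa4l (chr3:40745363-40745662, plus strand), the member furthest apart between genotypes, and its relatives Hspa4 (chr11:53300430-53300729, minus strand) and Hsph1 (chr5:149636287-149636586, minus strand). Hspe1 (chr1:55087898-55088197, plus strand) is shown as a member with the 3-unit motif, and Hspb8 (chr5:116422815-116423114, minus strand) and Hspb1 (chr5:135887669-135887968, plus strand) as the members furthest apart between array numbers. Capitals mark the 3-unit motif where there was one, and otherwise its 2-unit parts.
Hspa4l: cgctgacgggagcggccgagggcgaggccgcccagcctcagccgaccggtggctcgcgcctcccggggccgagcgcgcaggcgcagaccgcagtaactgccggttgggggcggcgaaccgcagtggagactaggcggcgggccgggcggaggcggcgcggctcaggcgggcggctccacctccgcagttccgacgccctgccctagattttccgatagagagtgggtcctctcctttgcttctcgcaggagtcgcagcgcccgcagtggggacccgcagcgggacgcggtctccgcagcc
Hspa4: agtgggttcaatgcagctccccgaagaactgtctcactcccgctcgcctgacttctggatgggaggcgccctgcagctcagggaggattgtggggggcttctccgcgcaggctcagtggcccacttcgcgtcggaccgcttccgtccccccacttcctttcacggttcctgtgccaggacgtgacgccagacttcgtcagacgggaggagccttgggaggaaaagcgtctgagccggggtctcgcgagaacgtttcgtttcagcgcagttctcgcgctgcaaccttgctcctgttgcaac
Hsph1: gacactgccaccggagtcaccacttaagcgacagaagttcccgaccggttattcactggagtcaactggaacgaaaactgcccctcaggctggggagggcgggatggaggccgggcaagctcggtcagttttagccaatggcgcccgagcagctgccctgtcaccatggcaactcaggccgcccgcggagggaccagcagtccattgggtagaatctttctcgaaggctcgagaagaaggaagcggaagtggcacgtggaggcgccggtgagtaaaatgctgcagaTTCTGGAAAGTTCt
Hspe1: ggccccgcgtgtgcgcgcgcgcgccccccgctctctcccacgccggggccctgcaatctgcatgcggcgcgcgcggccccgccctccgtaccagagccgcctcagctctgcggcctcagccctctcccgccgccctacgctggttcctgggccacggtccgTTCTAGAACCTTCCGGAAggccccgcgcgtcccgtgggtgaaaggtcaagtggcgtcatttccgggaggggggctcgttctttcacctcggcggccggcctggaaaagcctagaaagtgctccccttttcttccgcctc
Hspb8: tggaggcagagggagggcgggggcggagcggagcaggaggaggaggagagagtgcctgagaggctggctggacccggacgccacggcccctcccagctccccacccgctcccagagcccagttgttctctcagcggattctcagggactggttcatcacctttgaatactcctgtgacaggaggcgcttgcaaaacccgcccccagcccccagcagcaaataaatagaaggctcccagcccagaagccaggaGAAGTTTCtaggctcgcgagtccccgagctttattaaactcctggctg
Hspb1: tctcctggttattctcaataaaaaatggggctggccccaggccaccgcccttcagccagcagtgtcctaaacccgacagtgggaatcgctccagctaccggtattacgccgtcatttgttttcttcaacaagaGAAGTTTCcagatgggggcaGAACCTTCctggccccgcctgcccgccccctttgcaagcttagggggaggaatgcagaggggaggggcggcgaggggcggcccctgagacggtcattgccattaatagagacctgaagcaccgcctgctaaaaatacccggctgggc

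The windows of Hspa4l and Hspa4 held none of these letters, which says only that they are not in these 300 bases. In the Hsph1 window shown, 1 of 2 for this gene, the 3-unit motif began 37 bases into the transcript. In Hspe1, 2 overlapping copies began 89 and 84 bases before the start, in a stretch that also lies in a window of Hspd1, which is read from the other strand. Hspb8 and Hspb1 had 2-unit matches. A match is a stretch of letters and was not measured as a binding site.

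Hspa4l was higher in PA1 -/- cells with every tested probe set. HSPA4L is an HSP110-type protein, a large relative of HSP70 that acts as its nucleotide exchange factor. The brightest probe set read 1124 and 977 in PA1 -/- arrays, against 439 and 476 in PA1 +/+ arrays, so both PA1 -/- values were above both PA1 +/+ values. The means were 1050 ± 104 and 458 ± 26.1 (SD, n = 2 each). The log2 difference, PA1 -/- minus PA1 +/+ on the log2(signal + 9.96) scale, was 1.18 with a standard error of 0.248, a 2.26-fold higher level, with 1.34 at number 1 and 1.02 at number 2.

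A second Hspa4l probe set read 720 and 716 in PA1 -/- arrays, against 298 and 327 in PA1 +/+ arrays. Another read 659 and 521 in PA1 -/- arrays, against 305 and 287 in PA1 +/+ arrays. In the other two, PA1 -/- arrays read 632 and 746 and PA1 +/+ arrays 451 and 349 for the brighter, and PA1 -/- arrays 131 and 158 and PA1 +/+ arrays 91.3 and 114 for the dimmer. The 5 probe sets thus differed by 0.45 to 1.18 on the log2 scale, with no overlap between groups in any of the 5. Of 2212 genes with at least 3 tested probe sets, 53 (2.40%) had all of them higher without overlap, and among 19 members with at least 3 these were Hspa4l and Dnaja4. On the lower side it was 0 of the 19 members, beside 1.94% of the 2212.

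**Figure D1:**
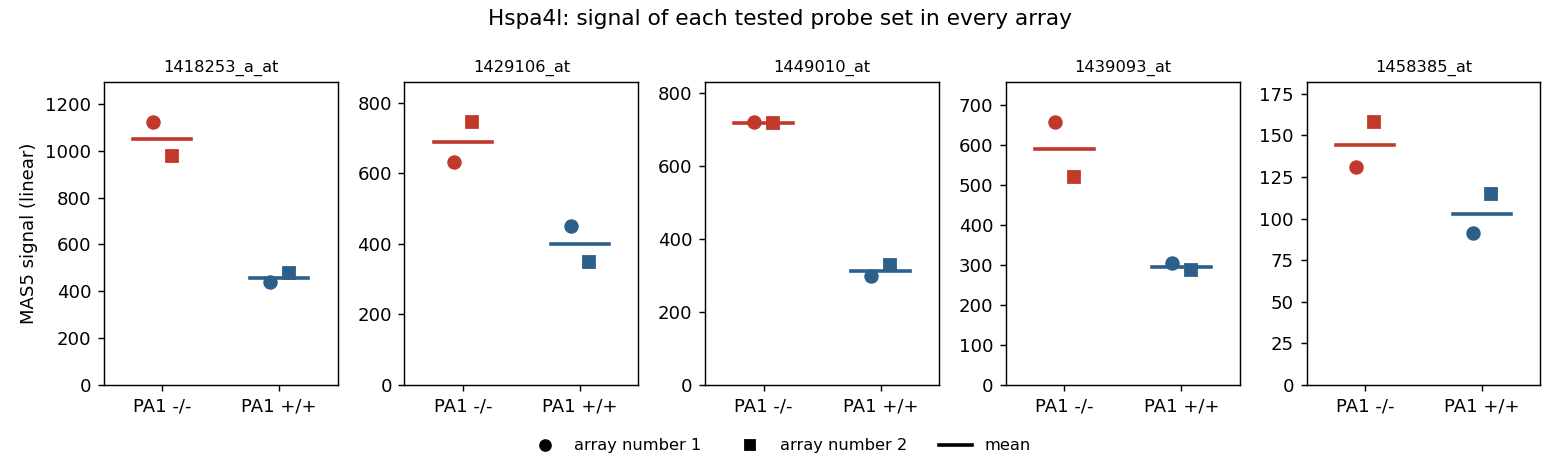
MAS5 signal (linear, each axis from 0) of the 5 tested Hspa4l probe sets, with PA1 -/- arrays on the left and PA1 +/+ arrays on the right of each panel; circles are arrays numbered 1, squares arrays numbered 2, and bars the mean of 2. In every panel both PA1 -/- points lie above both PA1 +/+ points, with the brightest probe set at 1124 and 977 against 439 and 476.

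With genotype as the only term, Hspa4l did not pass the test across the array. Limma gave the brightest probe set an unadjusted p of 0.00575 and an adjusted p of 0.9998 over all 22519 probe sets tested. No probe set of any gene passed at an adjusted p under 0.05 (0 of 22519, 0%), the targeted gene included (adjusted p = 0.876), and 440 had an unadjusted p under 0.05 (1.95%). That fit counts the difference between replicate numbers as spread. By the smaller of its differences at the 2 numbers, Hspa4l stood 19th from the top of 10714 genes.

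Its closest relatives differed less. HSPA4 and HSPH1 are the other cytosolic HSP110 proteins. Hspa4 read 6466 and 5721 in PA1 -/- arrays, against 5090 and 4690 in PA1 +/+ arrays, without overlap (log2 difference 0.32, SE 0.175). Its other tested probe sets gave 0.11 and 0.04, the latter with opposite signs at the numbers (-0.69 and 0.77). Hsph1 read 4921 and 3411 in PA1 -/- arrays, against 4273 and 4437 in PA1 +/+ arrays, a difference of -0.09 (SE 0.243) with opposite signs at the 2 numbers, 0.20 and -0.38. Its second probe set gave 0.20.

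Of the tested HSPA genes other than Hspa4l and Hspa4, 2 of 9 were above 0 and 7 below, with a median of -0.06 (4 above 0 and -0.007 after median scaling). Hspa8, the constant cytosolic HSP70, read 19008 and 22308 in PA1 -/- arrays, against 20515 and 21621 in PA1 +/+ arrays, values that overlapped (-0.03). Hspa9, the mitochondrial HSP70, read 6667 and 8273 against 6348 and 7099 (0.15). The stress-inducible genes Hspa1a and Hspa1b stood at -0.31 and -0.24. They are near-identical copies, so their probe sets may not separate them. Hspa1b read 1700 and 2227 in PA1 -/- arrays, against 2264 and 2352 in PA1 +/+ arrays. The other tested Hspa1b probe sets gave -0.05 and -0.13, both with overlap and opposite signs at the numbers.

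Hspa12b, a distant HSP70 relative, was the member lowest in PA1 -/- cells. It read 73.8 and 159 in PA1 -/- arrays, against 144 and 246 in PA1 +/+ arrays. The groups overlapped, because number 2 was higher than number 1 in both genotypes, but PA1 -/- was lower at each number (-0.88 and -0.60; mean -0.74, SE 0.490, limma adjusted p = 0.9998). Hspa12b has 1 probe set and is dim. HSPA12B is known from endothelial cells, and the summed signal of the 4 endothelial markers was 135 and 147 in PA1 -/- arrays, against 131 and 107 in PA1 +/+ arrays, and their part in the result was not tested.

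Mitochondrial HSP60 and HSP10 stood close together. Hspd1 read 13039 and 14168 in PA1 -/- arrays, against 12444 and 15338 in PA1 +/+ arrays (-0.02, and 0.03 to 0.10 after median, cyclic loess or quantile scaling). Hspe1 read 10449 and 10304 in PA1 -/- arrays, against 12042 and 11623 in PA1 +/+ arrays, lower without overlap with a difference of -0.19 (SE 0.133, limma adjusted p = 0.9998). Its second probe set overlapped, with 5936 and 6007 in PA1 -/- arrays, against 7574 and 5512 in PA1 +/+ arrays, and had opposite signs at the numbers (-0.35 and 0.12). Dnajb6, which has the 3-unit motif like these genes and Hsph1, stood at -0.27 by its brightest probe set and at 0.42, 0.17 and -0.37 by others.

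All 5 tested small heat shock protein genes differed more between array numbers than between genotypes, beside 67.5% of all tested genes. Hspb8, Hspb1 and Hspb2 were furthest apart between numbers. Hspb8, a partner of the co-chaperone BAG3 in clearing misfolded proteins, read 1887 and 61.5 in the PA1 -/- arrays numbered 1 and 2, against 2183 and 61.5 in the PA1 +/+ arrays. On the log2(signal + 9.96) scale, which understates ratios to dim values, number 1 was 26.5-fold above number 2 in PA1 -/- and 30.7-fold above it in PA1 +/+ cells. The number 2 signals lay below the median of their arrays, so these folds are rough, while the genotypes differed by -0.21 and 0.00 on the log2 scale within the numbers. On the same scale the other Hspb8 probe sets had number 1 above number 2 by 18.7-fold and 9.39-fold in PA1 -/- and by 21.8-fold and 11.3-fold in PA1 +/+ cells, with genotype differences of 0.20 and 0.32. Bag3 itself read 963 and 1039 in PA1 -/- arrays, against 708 and 935 in PA1 +/+ arrays, so number 2 was the higher one for it.

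Hspb1, which encodes the small heat shock protein called HSP25 in mouse and HSP27 in human, read 11911 and 3058 in PA1 -/- arrays, against 8906 and 2771 in PA1 +/+ arrays. Number 1 was 3.89-fold above number 2 in PA1 -/- and 3.21-fold in PA1 +/+ cells, and the genotypes differed by 0.42 and 0.14 within the numbers, with 0.37 and 0.54 by the second probe set. Hspb2, best known from muscle, went the other way, with 82.1 and 186 in PA1 -/- arrays, against 90.7 and 301 in PA1 +/+ arrays. Hspb6 read 1420 and 2076 in PA1 -/- arrays, against 1244 and 2331 in PA1 +/+ arrays, so number 2 was higher in both genotypes. Hspb11, which serves in cilia, differed by -0.16 between genotypes and by -0.51 between numbers (number 2 minus number 1).

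Hspb1, Hspb2 and Hspb8 were the 3 of 56 members whose numbers stood at least 2-fold apart the same way in both genotypes, beside 8.30% of all tested genes. For 35 of the 56 the mean difference between numbers was larger than that between genotypes, beside 67.5% of all tested genes. Some markers of other cell types moved with the number too, though not all markers of a type did. The summed signal of 4 muscle markers was 296 and 868 in PA1 -/- arrays, against 240 and 846 in PA1 +/+ arrays. Of this, Acta1 gave 159 and 768 in PA1 -/- and 138 and 762 in PA1 +/+ arrays. The defining muscle genes Myod1 and Myog read at most 25.2 and 24.0 in PA1 -/- arrays and 25.9 and 29.8 in PA1 +/+ arrays. The sum of 4 neural markers was 1112 and 320 in PA1 -/- arrays, against 1869 and 659 in PA1 +/+ arrays. Of this, Map2 gave 606 and 44.4 in PA1 -/- and 793 and 94.1 in PA1 +/+ arrays. Tubb3 was also higher at number 1 in both genotypes, and Gfap was dim (7.31 to 53.2). Sox10 was higher at number 2, with 68.7 and 107 in PA1 -/- arrays, against 68.5 and 107 in PA1 +/+ arrays. For 6 epithelial markers the sum was 493 and 349 in PA1 -/- arrays, against 706 and 307 in PA1 +/+ arrays. Of this, Krt18 gave 266 and 27.6 in PA1 -/- and 298 and 11.4 in PA1 +/+ arrays. Cdh1 was also higher at number 1 in both genotypes. Epcam, Krt8 and Krt5 were higher at number 2 in both, and Krt14 differed in direction. The labels do not say what the numbers stand for, and the part of these markers in the result was not tested.

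**Figure D2:**
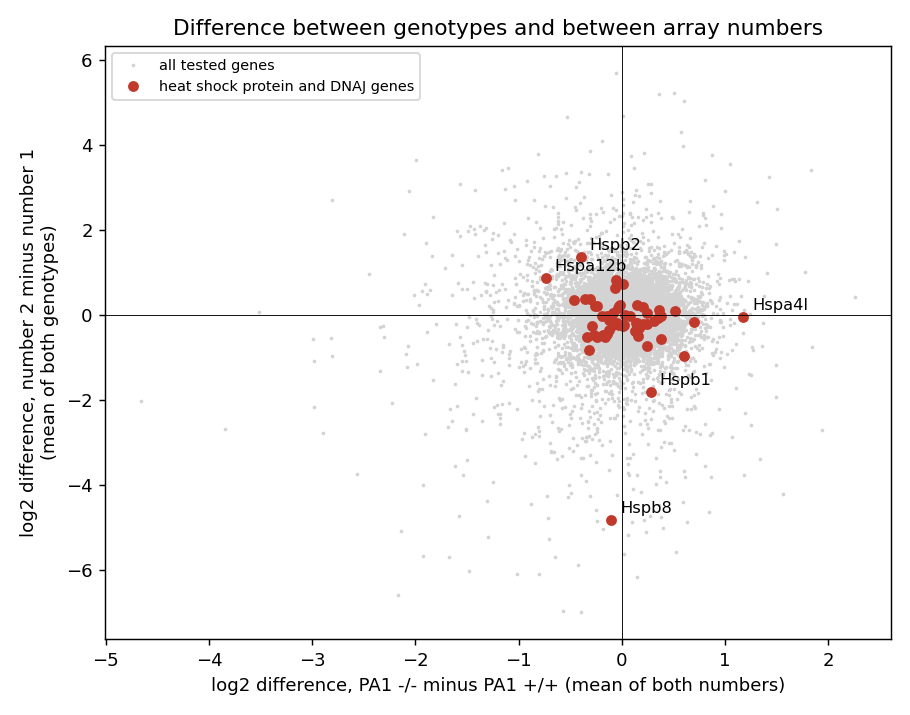
Mean log2 difference between genotypes (PA1 -/- minus PA1 +/+, horizontal) against mean log2 difference between array numbers (number 2 minus number 1, vertical) for 56 members (red) and all 10714 tested genes (grey). Hspb8 and Hspb1 lie far below 0 on the vertical axis, and Hspa4l lies furthest right of the members, at 1.18, and near 0 vertically.

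Among the DNAJA genes, which are the closest relatives of bacterial DnaJ, Dnaja4 was higher with all 3 probe sets. Its brightest read 613 and 686 in PA1 -/- arrays, against 489 and 515 in PA1 +/+ arrays (0.36), and the others gave 0.57 and 0.25. Dnaja1 read 9250 and 8032 in PA1 -/- arrays, against 9410 and 7683 in PA1 +/+ arrays (0.02). Dnaja2 read 8055 and 9522 against 8262 and 9551 (-0.02), but its probe sets did not run together. The dimmest read 336 and 496 in PA1 -/- arrays, against 591 and 654 in PA1 +/+ arrays (-0.59), while 2 others gave 0.25 and 0.18.

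In the DNAJB family 7 of 9 tested genes were above 0, with a median of 0.16, and 5 were higher at both numbers (33.9% of all tested genes). Dnajb1, the stress-inducible HSP40, read 3261 and 3700 in PA1 -/- arrays, against 2866 and 2470 in PA1 +/+ arrays, without overlap (0.38, SE 0.206, limma adjusted p = 0.9998), and 0.14 by its second probe set. Dnajb4 stood at 0.38 and Dnajb12, an endoplasmic reticulum membrane protein, at 0.25. Its relative Dnajb14 read 322 and 184 in PA1 -/- arrays, against 241 and 102 in PA1 +/+ arrays, higher at both numbers (0.40 and 0.79), yet its second probe set gave -0.26. After cyclic loess or quantile normalization 6 of the 9 were above 0.

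Dnajb6, which restrains protein aggregation, read 4072 and 3133 in PA1 -/- arrays, against 5256 and 3553 in PA1 +/+ arrays (-0.27). Its other probe sets gave 0.42, 0.17 and -0.37, so its direction depends on the probe set. Dnajb5 stood at 0.16 by its brightest probe set, with opposite signs at the numbers, and at 0.70 and 0.76 by the others. The endoplasmic reticulum co-chaperone genes Dnajb9 and Dnajb11 stood at 0.03 and -0.19.

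The DNAJC family, whose members share only the J domain, spread in both directions: 11 of 23 tested genes were above 0 and 12 below, with a median of -0.05 (0.01 after median scaling, with 12 above 0). Dnajc8, a splicing-associated protein gene, read 7231 and 6296 in PA1 -/- arrays, against 7200 and 7335 in PA1 +/+ arrays (-0.11). Its second probe set gave 0.12, higher without overlap. Dnajc9, which handles histones, read 3816 and 3752 against 4446 and 3816 (-0.12). Dnajc17, also linked to splicing, had the highest difference after Hspa4l: 1030 and 1069 in PA1 -/- arrays, against 734 and 560 in PA1 +/+ arrays (0.70, SE 0.264, limma adjusted p = 0.9998). A second probe set of Dnajc17 gave -0.10, with 356 and 292 in PA1 -/- arrays, against 360 and 334 in PA1 +/+ arrays.

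Dnajc5, the cysteine string protein of secretory vesicles, was above 0 with each of 5 probe sets, from 0.05 to 0.72. Dnajc27 and Dnajc21 stood at 0.52 and 0.35. On the lower side, Dnajc18 read 447 and 602 in PA1 -/- arrays, against 651 and 790 in PA1 +/+ arrays (-0.46), with 0.03 and -0.32 by other probe sets. The endoplasmic reticulum co-chaperone genes Dnajc1, Dnajc3 and Dnajc10 stood at -0.35, -0.34 and -0.15. Other probe sets of Dnajc10 gave -0.09 and 0.16, the latter higher without overlap. Dnajc3, which also inhibits the kinase PERK, read 1571 and 993 in PA1 -/- arrays, against 1815 and 1376 in PA1 +/+ arrays, while its other probe sets ranged from -0.17 to 0.28.

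Hsf2, a transcription factor related to heat shock factor 1, read 49.5 and 62.1 in PA1 -/- arrays, against 58.7 and 85.9 in PA1 +/+ arrays. The groups overlapped and the signal was dim (-0.31, SE 0.360).

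**Figure D3:**
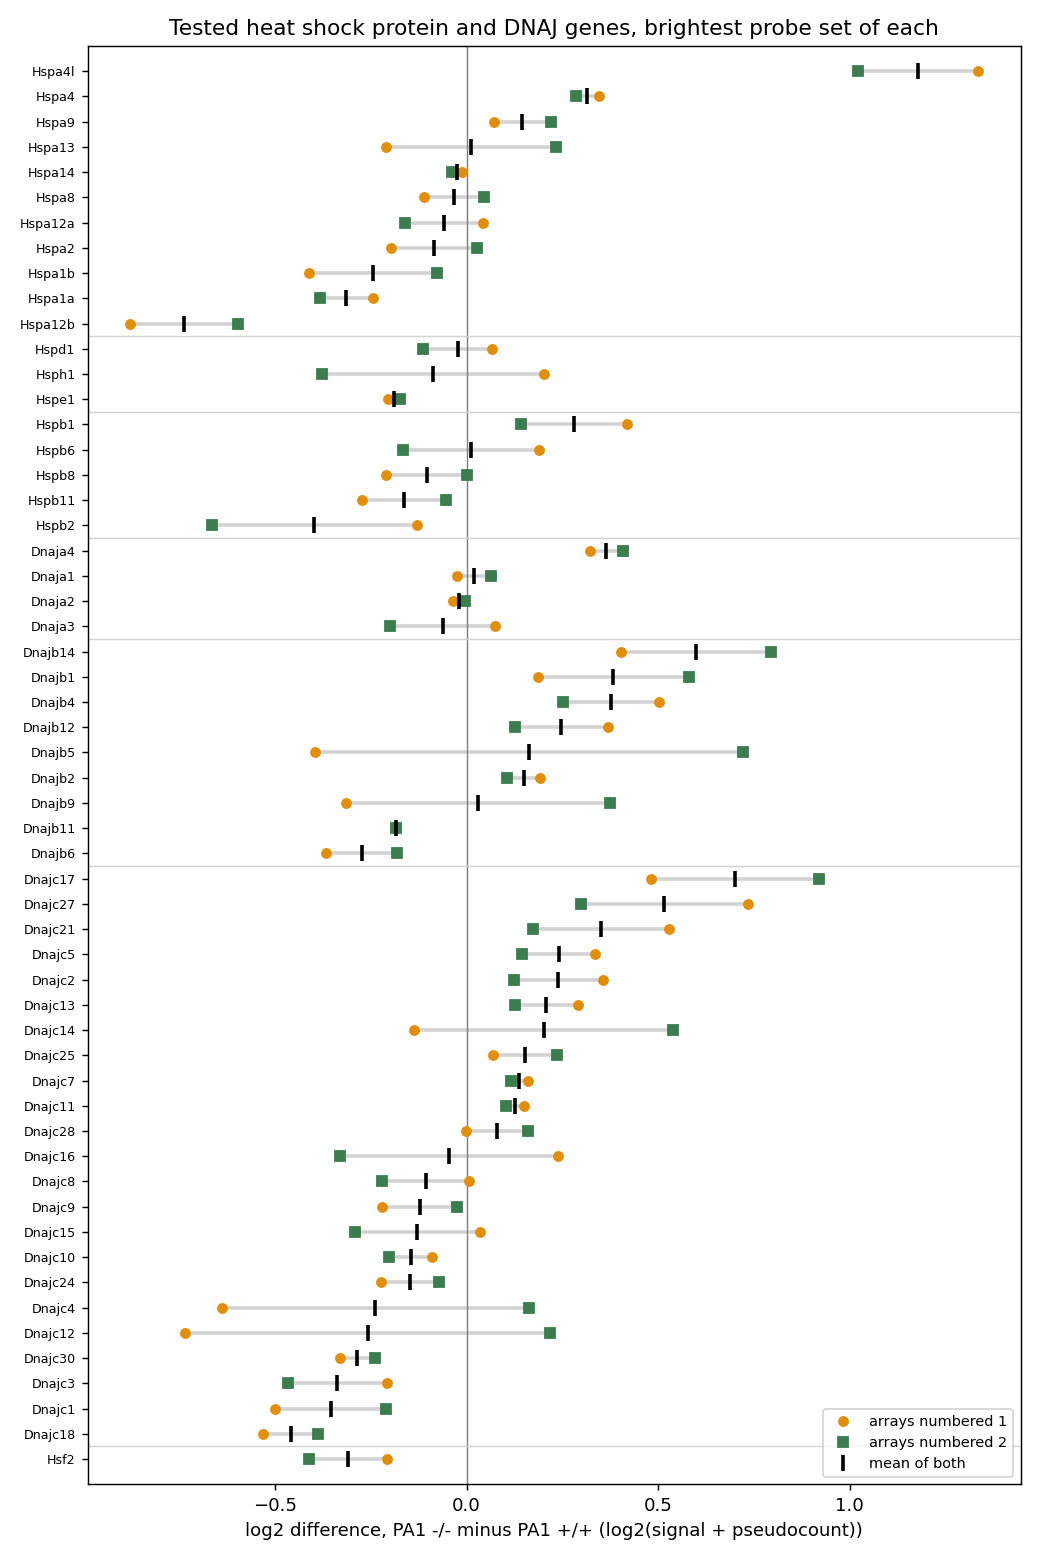
Log2 difference (PA1 -/- minus PA1 +/+) of the brightest tested probe set of each of 56 genes, by family and in falling order within it; circles are arrays numbered 1, squares arrays numbered 2, ticks their mean. Hspa4l stands apart at 1.34 and 1.02, while 36 of the 56 means lie within 0.25 of 0, beside 61.4% of all tested genes.

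As a whole, the tested members were split between higher and lower. Of the 68 genes, 56 had a probe set in the brighter 50% of the array, and the other 12 read between 0.951 and 84.8 in all arrays. Of the 56, 26 were above 0 and 30 below, with a median of -0.02, beside 0.02 for all 10714 tested genes. At both numbers 19 were higher and 18 lower, beside 33.9% and 29.3% of all tested genes. Groups did not overlap for 9 on the higher side (15.0% of all tested genes) and 6 on the lower side (11.3%). After median scaling, which moved the median of all genes to 0.08, these counts were 12 and 3 and the median of the members was 0.03. The shares of all tested genes without overlap were not counted after that scaling.

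At least 0.5 apart the same way at both numbers were Hspa4l on the higher side (2.45% of all tested genes) and Hspa12b on the lower (3.41%). At a size of 1, Hspa4l was the 1 member higher (0.187%) and 0 were lower (0.831%). At 0.25, 7 were higher (10.4%) and 2 lower (9.72%). The 7 were Hspa4l, Hspa4, Dnaja4, Dnajb4, Dnajb14, Dnajc17 and Dnajc27. Hspa4l and Dnajc17 had an unadjusted limma p under 0.05 on the higher side, which 0.812% of all tested genes had, and no member did on the lower side (1.34%). With more than 1 probe set tested, 17 of 35 members had probe sets of both signs.

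**Figure D4:**
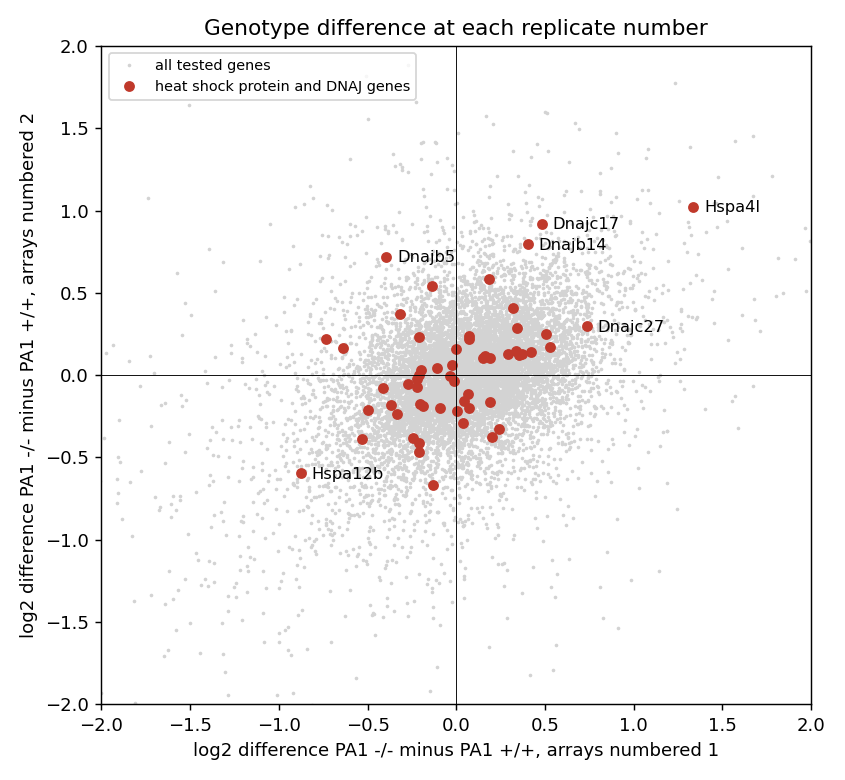
Log2 difference between genotypes at number 1 (horizontal) and number 2 (vertical) for 56 members (red) and all tested genes (grey); axes stop at 2, which leaves out 96 genes and no member. Hspa4l lies at 1.34 and 1.02, Hspa12b at -0.88 and -0.60, and most members lie within the grey cloud around 0.

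The HSP90 genes and their co-chaperones, which mature kinases and steroid receptors, leaned slightly higher. Of 16 tested, 14 were above 0 and 12 were higher at both numbers (33.9% of all tested genes). The groups did not overlap for 9, all 9 higher (15.0% of all tested genes). None of the 16 passed limma, and the median was 0.15, beside 0.02 for all tested genes. Hsp90aa1, the inducible cytosolic HSP90, read 12319 and 13420 in PA1 -/- arrays, against 11781 and 12294 in PA1 +/+ arrays (0.10). Chordc1, an HSP90 co-chaperone, read 4269 and 4044 in PA1 -/- arrays, against 3604 and 2871 in PA1 +/+ arrays (0.37), and Ahsa2 and Tsc1 both stood at 0.32. Hsp90ab1 was not analysed here. The count of 14 was the same after quantile, cyclic loess and median scaling.

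Chaperones of the endoplasmic reticulum lay on the other side. Of 14 tested, 13 were below 0, 9 were lower at both numbers and 6 did not overlap, all 6 lower (11.3% of all tested genes), with a median of -0.25 and none past limma. Hspa5, the HSP70 of this compartment, read 13116 and 10886 in PA1 -/- arrays, against 15580 and 13996 in PA1 +/+ arrays (-0.31). Ppib, a prolyl isomerase, stood at -0.33 and Sdf2 at -0.26. After quantile normalization 11 were below 0 and 2 did not overlap.

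The remaining lists stood nearer to 0. Partners of HSP70 other than DNAJ proteins had 12 of 16 above 0, with a median of 0.07, and Bag2 and Bag6 at 0.35 each. The count above 0 was 9 after cyclic loess and 10 after quantile normalization, with a median of 0.04 in each, and 13 after median scaling. Stub1, the ubiquitin ligase that acts on HSP70 clients, read 7160 and 9741 in PA1 -/- arrays, against 10201 and 11816 in PA1 +/+ arrays (-0.39). The cytosolic chaperonin TRiC and prefoldin had 8 of 15 above 0 and a median of 0.00 (12 above 0 and 0.07 after quantile normalization, 10 above 0 after median scaling), with Pfdn1 at -0.37, Pfdn5 at -0.22 and Pdcl3 at 0.15. Mitochondrial proteases and their partners had 7 of 10 above 0 and a median of 0.07, with Afg3l2 at 0.30, Spg7 at 0.24 and Clpp at -0.24. After cyclic loess or quantile normalization 6 of these were above 0.

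Regulators of heat shock factor 1 and other stress-induced genes had 5 of 12 above 0 and a median of -0.02 (7 above 0 and 0.03 after quantile normalization, 8 above 0 and 0.04 after median scaling), with the widest range of these lists, -0.65 to 0.56. Mt2, a metallothionein, read 3349 and 3690 in PA1 -/- arrays, against 5583 and 5498 in PA1 +/+ arrays (-0.65). Ier5 read 3034 and 3473 in PA1 -/- arrays, against 1810 and 2659 in PA1 +/+ arrays (0.56), while Ier2 stood at -0.40. No tested gene of the 6 lists passed limma at an adjusted p under 0.05, and the lists themselves were not tested.

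**Figure D5:**
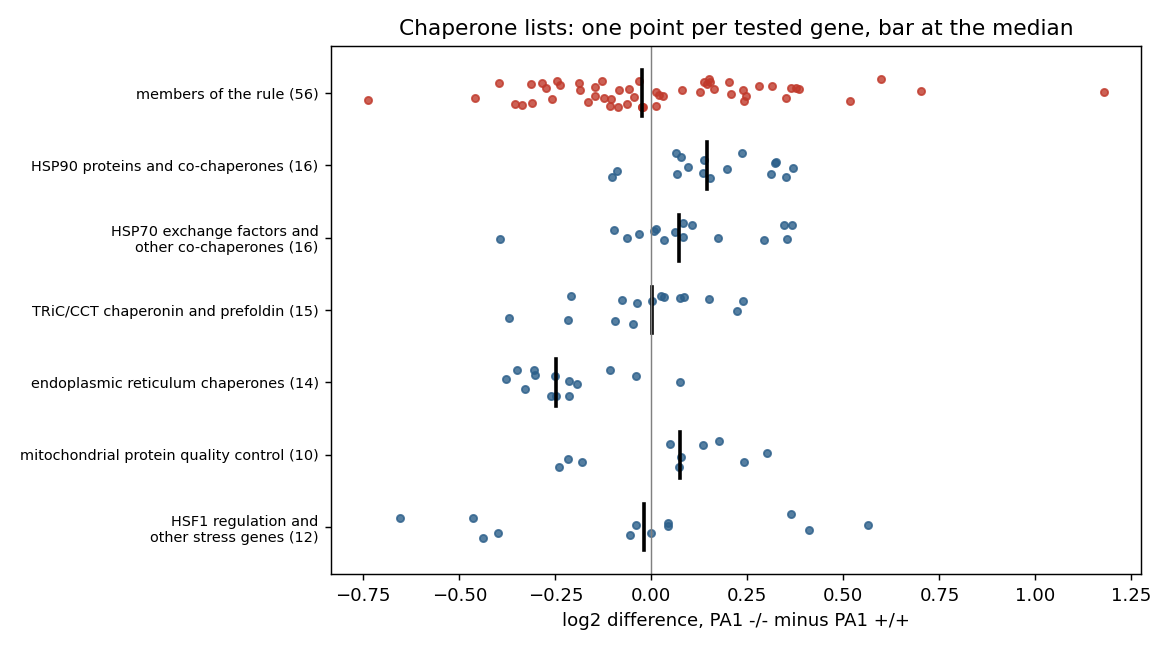
Log2 difference between genotypes (PA1 -/- minus PA1 +/+) for each tested gene of the members and of 6 further chaperone lists, 1 point per gene with a bar at the median; vertical scatter within a list is only to separate points. The HSP90 list has its median at 0.15 and the endoplasmic reticulum list at -0.25, both inside the range of the members, -0.74 to 1.18.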

How the data were processed

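Total RNA from PA1 -/- and PA1 +/+ fibroblasts, 2 samples each, was labelled with biotin for Affymetrix arrays, per the labels. Values were deposited as linear intensity per probe set. The authors made them with MAS5, according to the submitters' processing notes; version and settings: not given in the sources used here. Every array had a 2% trimmed mean near 500.0, as global scaling gives, so differences are relative to each array's average. Without 64 control probe sets, 45037 remained, of which 34945 had 1 gene symbol, 932 several and 9160 none; no gene was named from the last 2 kinds.

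Signals were analysed as log2(signal + 9.96), 9.96 being the 20th percentile, so differences of dim genes are understated. The brighter 50% of probe sets, 22519, were tested with limma 3.58.1 in R 4.3.3 (lmFit, eBayes with an intensity trend, genotype as the only term, 2 residual degrees of freedom), 2-sided, with Benjamini-Hochberg adjustment over all of them. An exact permutation test of 2 against 2 cannot go below 0.333. A gene was read through its brightest tested probe set, and levels of different probe sets were not compared. The members and lists were chosen with earlier results of these data known. Values in every array were given by rule for Hspa4l, Hsf2, members at least 0.5 apart at both numbers, the 2 brightest of each family and those with disagreeing probe sets; Hspa1b, Hspa4, Hsph1, Hspb2, Hspb8, Bag3, Dnaja4 and Dnajc18 were added after their values were seen. From each list, up to 3 genes without overlap and with the largest differences were named.

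Numbers 1 and 2 are labels of the arrays. The limma test did not use them as pairs, because the labels do not say that a number marks a shared culture or day. The differences at each number, the counts and naming rule built on them, and the rank of Hspa4l did compare same-numbered arrays. A fit with the number as a block was an alternative, beside other scalings, pseudocounts, filters and leaving out each array. Promoter windows are RefSeq's. Python 3.11.15 with matplotlib 3.10.9 drew the figures.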

Additional observations from a re-analysis of the deposited data

How the results depend on the processing

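Hspa4l kept its direction in every setting tried, and all tested Hspa4l probe sets were higher without overlap in each of them. Its log2 difference ran from 1.08 to 1.28 when 1 array was left out and was 0.91 as the mean of its probe sets. With the replicate number as a block (replicate block), the difference of 1.18 had a limma adjusted p of 0.00935. In this fit 3 of the 5 Hspa4l probe sets passed, and the others had a limma adjusted p of 0.0889 and 0.377. Hspa4l was the 1 member of 56 past the threshold, with 447 of 22519 probe sets and 266 of 10714 genes called. The block leaves fewer residual degrees of freedom than the 2 of the main fit. Hspa4l was singled out with earlier results of these data known, so its p-value is not independent support. Deviations from the group means correlated at 0.805 between same-numbered arrays, which with 2 pairs does not settle that they were paired. In all other fits the adjusted p of Hspa4l was at least 0.999 and 0 members passed. The median of the members was 0.033 after median scaling, 0.037 when probe sets of each gene were averaged, and -0.067 (without PA1 +/+ replicate 2) to 0.11 (without PA1 +/+ replicate 1) when 1 array was left out. Members at least 0.5 higher at both numbers were 2 after median scaling (with Dnajc17) and 2 without the filter (with the dim Dnajb8), and 7 at a size of 0.25. Those lower were 0 with the pseudocount at the median signal, 0 among the upper 30% of probe sets, which leave out Hspa12b, 0 at a size of 1 and 2 at a size of 0.25. Members without overlap on the lower side were 3 after median scaling. The shares of all tested genes without overlap were not counted after median scaling or with 1 array left out. With 1 array left out, 14 to 26 were higher and 13 to 19 lower without overlap, since 2 arrays against 1 overlap less often. The number of arrays limits the precision.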
